A study of Homo sapiens with 12 samples.

Results

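The genes described here encode 5 secreted hormones or hormone-like proteins that many cell types make under stress: GDF15, INHBE, STC2, STC1 and ERFE. They were chosen by rule as every probe set annotated to exactly 1 of these genes, which gave 10 probe sets of the 54675 on the array. The genes were selected on these same data, for rising with time or with CsA, so their values in those comparisons are given as a description with no test. Of the 10 probe sets, 5 had a log2 value above 4 on at least 3 arrays, and they stood for 4 of the 5 genes. Those 4 are among the 11154 genes that passed the same filter.

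The study exposed HK-2, an immortalized cell line from the proximal tubule of the human kidney, to CsA or to a control vehicle. CsA is taken to mean cyclosporin A, which blocks calcineurin, is used against graft rejection and is known for kidney toxicity. Microarrays were made from 4 groups of 3 arrays that the labels call biological replicates: CsA for 12 h, control for 12 h, CsA for 48 h and control for 48 h. Neither the dose of CsA nor the identity of the vehicle is given in the sources used here. Cells of every group grew in a defined medium with epidermal growth factor, hydrocortisone, insulin, transferrin and selenite, and were seeded the day before treatment and treated when nearly confluent. As a model, all groups are 1 line transformed with human papillomavirus genes, without the other cells of a kidney. The p-values measure the spread between these arrays.

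GDF15 is a distant member of the transforming growth factor beta family that curbs appetite through the receptor GFRAL and its partner RET in the hindbrain. INHBE encodes the beta E chain of activin E, best known as a product of the liver that acts on fat tissue. STC2 and STC1 are stanniocalcins, relatives of a calcium-regulating hormone of fish, and STC2 inhibits the protease PAPPA, which frees insulin-like growth factors from their binding proteins. ERFE, erythroferrone, is released by red cell precursors and binds bone morphogenetic proteins and lowers the liver's output of the iron hormone hepcidin. In many cells, stress on protein folding or amino acid supply activates kinases that phosphorylate the translation factor EIF2S1, which raises translation of the transcription factor ATF4. ATF4 and its partner DDIT3 (CHOP) are known inducers of GDF15, INHBE and STC2.

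GDF15 and STC2 were both higher at 48 h than at 12 h in control cells and ERFE was not. Promoter sequences are shown for these genes, and none for INHBE or STC1. They run over the 250 bases before the gene's start, 5′ to 3′ on the gene's own strand, from RefSeq on GRCh38.p14. GDF15 is at chr19:18385908-18386157 on the plus strand, STC2 at chr5:173328415-173328664 on the minus strand and ERFE at chr2:238158720-238158969 on the plus strand. Capitals mark a match, on either strand, to one of 9 motifs searched.
GDF15: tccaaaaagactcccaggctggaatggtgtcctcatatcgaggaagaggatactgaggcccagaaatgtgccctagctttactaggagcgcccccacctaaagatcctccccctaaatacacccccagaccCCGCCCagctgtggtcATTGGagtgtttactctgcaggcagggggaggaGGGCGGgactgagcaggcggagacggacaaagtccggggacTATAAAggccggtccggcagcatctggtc
STC2: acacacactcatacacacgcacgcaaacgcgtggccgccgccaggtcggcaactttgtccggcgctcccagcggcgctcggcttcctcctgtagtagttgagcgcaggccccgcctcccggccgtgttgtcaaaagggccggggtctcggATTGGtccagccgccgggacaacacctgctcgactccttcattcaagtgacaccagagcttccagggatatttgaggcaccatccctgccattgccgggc
ERFE: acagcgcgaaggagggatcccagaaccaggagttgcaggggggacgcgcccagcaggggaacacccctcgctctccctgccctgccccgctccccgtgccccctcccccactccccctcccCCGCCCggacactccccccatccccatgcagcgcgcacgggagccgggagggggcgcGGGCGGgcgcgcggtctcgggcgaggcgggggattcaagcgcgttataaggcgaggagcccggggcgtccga
The motifs searched were TGATGNAA (the core of the element bound by C/EBP and ATF factors), TGACGTCA (the cyclic AMP response element), TGACGTG (the unfolded protein response element core), TGANTCA (the AP-1 site), ACGTG (the hypoxia element core), CCAAT (the CCAAT box), GGGCGG (the GC box), TATAAA (the TATA box) and the ER stress element. The UPR element core holds the hypoxia element core, and the ER stress element begins with a CCAAT box.

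GDF15 held a CCAAT box on the minus strand at bases 103 to 99 before the start, GC boxes at 119 to 114 and 70 to 65, and a TATA box at 29 to 24. STC2 held a CCAAT box on the minus strand at bases 100 to 96. ERFE held GC boxes at 129 to 124 and 72 to 67. Across the same window of all 27305 promoters in the table, a CCAAT box occurred in 33.0%, a GC box in 42.3% and a TATA box in 11.1%. The remaining motifs occurred in 3.19% (TGATGNAA), 1.77% (TGACGTCA), 1.71% (TGACGTG), 6.6% (TGANTCA), 18.7% (ACGTG) and 0.0806% (the ER stress element) of promoters, and none of these letters lay in the 3 windows shown. A match is a description and no sign of a bound site. The share of G and C was 58.4% in GDF15, 63.6% in STC2 and 75.6% in ERFE, against a median of 58.0% over all promoters.

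The arrays were alike in breadth, with 42.2 to 42.8% of probe sets above a log2 value of 4. The arrays of 48 h were more variable than those of 12 h: the median SD of a gene was 0.200 in CsA and 0.147 in control cells at 48 h, against 0.107 in CsA and 0.103 in control cells at 12 h. On CsA 48 h replicate 3 the median of the hybridization controls was 6.95, against 9.60 to 10.95 on the other arrays. On replicate 1 of CsA and of control at 48 h the median of the poly-A controls was 4.32 and 4.16, against 8.33 to 9.82 elsewhere. The 3′ control probe set of ACTB exceeded the 5′ one by 1.33 on control 48 h replicate 1 and 1.22 on CsA 48 h replicate 3. On the other arrays it did so by 0.73 to 0.98. For GAPDH the same difference was 0.02 and 0.14 on those 48 h arrays, against -0.11 to -0.02 on the others. Changes were also computed without CsA 48 h replicate 3 and without both replicates 1 of 48 h, the arrays with low poly-A controls. Of 19 proximal tubule markers, 10, among them the transport proteins LRP2, CUBN and AQP1, lay at or under a log2 value of 4 on every array, and 6 were measured. The mean of those 6 was 10.16 to 10.34 in CsA cells and 10.68 to 11.09 in control cells at 48 h. By limma's adjusted p, 4 of the 6 were lower and 1 was higher with CsA at 48 h, where 9.89% of all genes were lower and 6.2% higher. PAX8 was the higher one (1.09, limma adjusted p = 7.7e-04, and 0.0454 in the arrays of 48 h alone). CDH6 was among the lower ones (-1.16, limma adjusted p = 5.7e-04, and 0.0450 alone). The mean of the 9 measured epithelial markers was 11.71 to 12.07 in CsA cells and 11.50 to 11.69 in control cells at 48 h. None of the endothelial or leukocyte markers was measured. Measured markers of other types were 2 of 6 for podocytes, 5 of 9 for fibroblasts and mesangial cells, and 5 of 11 for loop, distal tubule and collecting duct. With CsA at 48 h, 2 of the 5 fibroblast and mesangial markers were lower and 0 higher by limma's adjusted p. The marker means move with CsA at 48 h, and their part in the results was not tested. In bulk RNA, more cells that express a gene cannot be told apart from more RNA in each cell.

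GDF15 was read by probe set 221577_x_at. At 12 h its log2 values were 11.23, 10.96 and 10.73 in CsA cells, against 10.33, 10.15 and 9.79 in control cells. At 48 h they were 14.40, 14.17 and 13.86 in CsA cells, against 13.46, 13.63 and 13.28 in control cells. At both times every CsA array lay above every control array, by a gap of 0.40 at 12 h and 0.23 at 48 h. The means were 10.97 ± 0.25 in CsA and 10.09 ± 0.27 in control cells at 12 h, and 14.14 ± 0.27 in CsA and 13.46 ± 0.18 in control cells at 48 h (SD, n = 3 each). The effect at 48 h minus that at 12 h was -0.19 (SE 0.26) on the log2 scale, less than its SE. GDF15 has 2 other probe sets, 221576_at and 229868_s_at, which lay between 2.00 and 3.06 on every array, so the whole pattern rests on a probe set whose suffix marks probes that can share sequence with other transcripts.

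**Figure D1:**
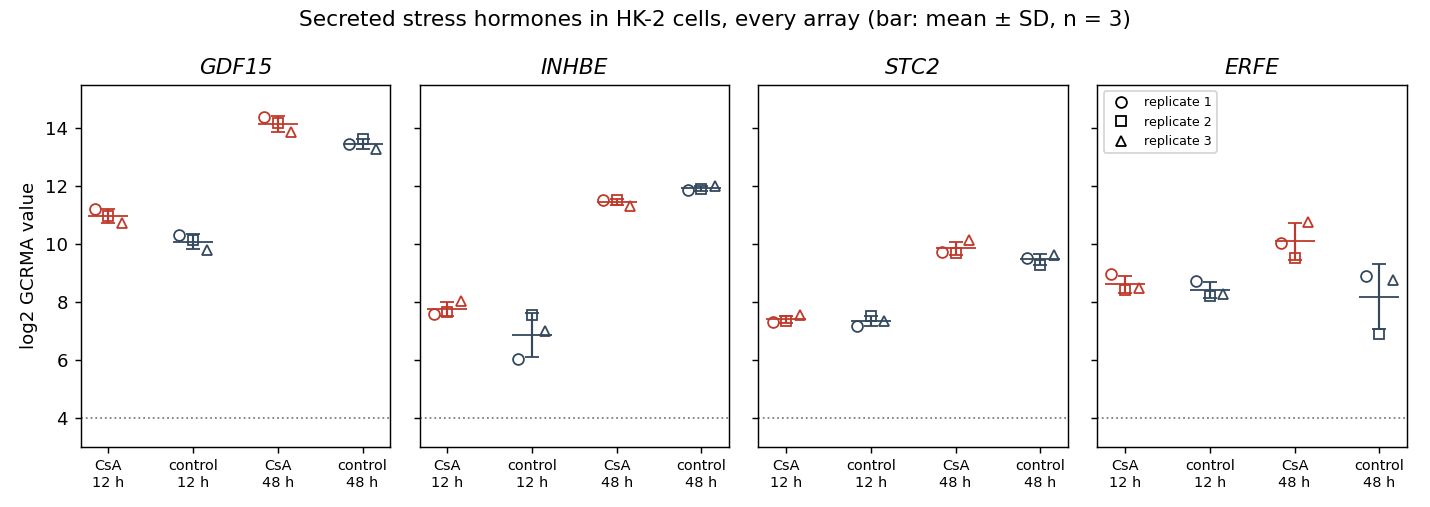
Log2 GCRMA values of GDF15, INHBE, STC2 and ERFE on every array (y axis), by group (x axis, CsA left of control at each time). Symbols are replicates 1 to 3, horizontal marks and bars are the mean and SD (n = 3), and the dotted line is the filter at 4; GDF15, INHBE and STC2 sit far higher at 48 h than at 12 h in both treatments, while control ERFE does not.

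INHBE was read by its only probe set, 210587_at. At 12 h its log2 values were 7.58, 7.66 and 8.05 in CsA cells, against 6.04, 7.57 and 6.99 in control cells. At 48 h they were 11.51, 11.53 and 11.33 in CsA cells, against 11.86, 11.92 and 12.01 in control cells. The CsA arrays thus lay above the control arrays at 12 h, by a gap of 0.01, and below them at 48 h, by a gap of 0.32. The means were 7.76 ± 0.25 in CsA and 6.86 ± 0.77 in control cells at 12 h, and 11.46 ± 0.11 in CsA and 11.93 ± 0.08 in control cells at 48 h (SD, n = 3 each). The 12 h change of 0.90 (SE 0.30) was 0.48 without control 12 h replicate 1, the lowest of the arrays. At 48 h the change was -0.47 (SE 0.30), or 1.39-fold lower in CsA cells, and same-numbered arrays differed by -0.35, -0.38 and -0.68. This SE pools the spread of all arrays, with an SD of 0.77 in control cells at 12 h. It overstates the spread at 48 h, where the SDs were 0.11 and 0.08. At 12 h, same-numbered arrays differed by 1.54, 0.09 and 1.06, so replicate 2 was almost equal in CsA and control cells. Replicate numbers met the check for pairing at 12 h but not at 48 h. The difference of the effects at 48 h and 12 h was -1.37 (SE 0.42), and -0.95 without control 12 h replicate 1.

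STC2 was read by 2 probe sets that passed the filter, and 203438_at, the brighter, stood for the gene. At 12 h its log2 values were 7.31, 7.35 and 7.55 in CsA cells, against 7.17, 7.52 and 7.35 in control cells. At 48 h they were 9.72, 9.70 and 10.13 in CsA cells, against 9.51, 9.28 and 9.64 in control cells. The groups overlapped at 12 h and separated at 48 h by a gap of 0.06. The CsA change was 0.06 (SE 0.14) at 12 h and 0.37 (SE 0.14) at 48 h, and the 48 h value was 0.24 without CsA 48 h replicate 3. At 12 h the sign was not stable, with -0.03 without control 12 h replicate 1. The other probe set, 203439_s_at, gave a CsA change of 0.93 (SE 0.26) at 48 h, on values of 7.66, 6.97 and 8.33 in CsA cells against 6.75, 6.53 and 6.88 in control cells. At 12 h its change was -0.01 (SE 0.26), so both probe sets place the CsA difference at 48 h and differ in its size.

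**Figure D2:**
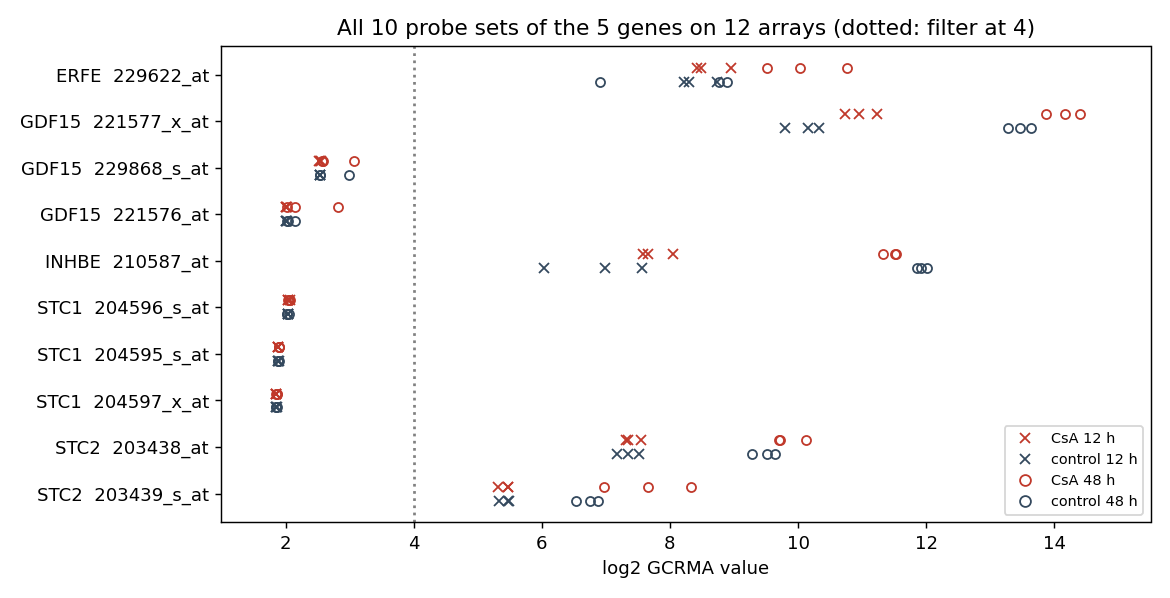
Log2 GCRMA values (x axis) of all 10 probe sets of the 5 genes (y axis) on 12 arrays, with CsA in red and control in blue-grey, 12 h as crosses and 48 h as circles, and the filter at 4 as a dotted line. The 3 STC1 probe sets and 2 of the 3 GDF15 probe sets sit left of the line on every array.

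STC1, the relative of STC2, lay at the floor. Its 3 probe sets ran from 1.88 to 1.90 (204595_s_at), from 2.02 to 2.07 (204596_s_at) and from 1.85 to 1.87 (204597_x_at) over all 12 arrays. No array was above 4, so the gene has no measured level here and no order between groups.

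ERFE was read by probe set 229622_at. At 12 h its log2 values were 8.96, 8.42 and 8.49 in CsA cells, against 8.73, 8.22 and 8.29 in control cells. At 48 h they were 10.03, 9.51 and 10.76 in CsA cells, against 8.90, 6.90 and 8.77 in control cells. The groups overlapped at 12 h and separated at 48 h by a gap of 0.61. The means were 10.10 ± 0.63 in CsA and 8.19 ± 1.11 in control cells at 48 h (SD, n = 3 each), and replicate 2 was the lowest of the control arrays. The CsA change was 0.21 (SE 0.48) at 12 h and 1.91 (SE 0.48) at 48 h, or 3.75-fold, and the 48 h change was 1.27 without control 48 h replicate 2. That SE pools the spread of both times. In the arrays of each time alone it was 0.19 at 12 h and 0.59 at 48 h. Same-numbered arrays at 48 h differed by 1.13, 2.60 and 1.99. Their shared sign adds nothing, since the groups did not overlap and any matching of arrays would give it. At 12 h each pair differed by close to 0.2, at 0.23, 0.20 and 0.19, although the groups overlapped, and the change ranged from 0.04 to 0.36 when single arrays were left out. The effect at 48 h minus that at 12 h was 1.70 (SE 0.68), and 1.06 without control 48 h replicate 2.

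**Figure D3:**
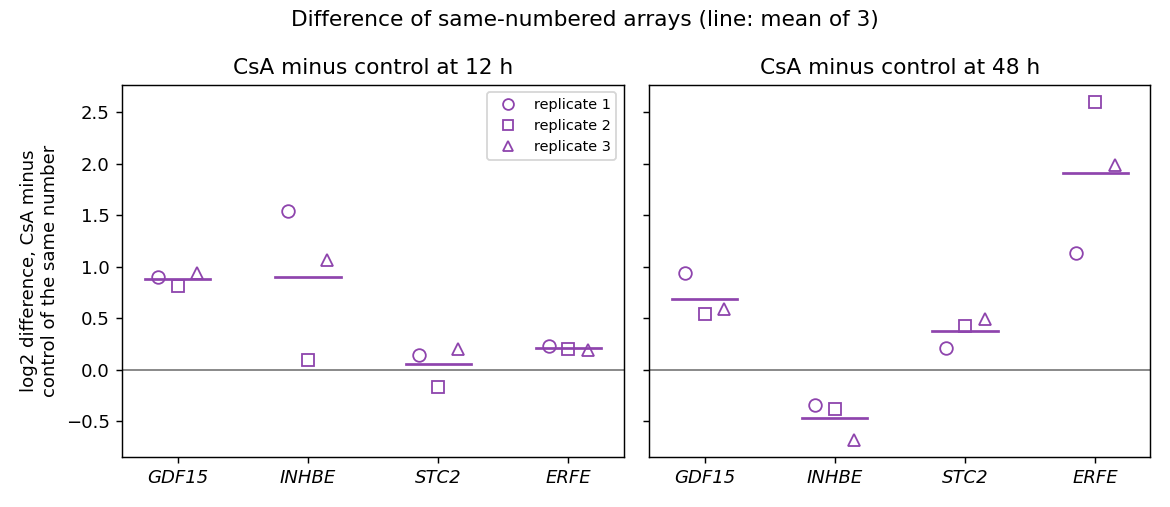
Log2 difference of same-numbered arrays, CsA minus control (y axis), for GDF15, INHBE, STC2 and ERFE at 12 h (left) and 48 h (right). Symbols are replicates 1 to 3 and lines are their mean; INHBE is above 0 at 12 h and below 0 at 48 h for each replicate, and ERFE is widest at 48 h.

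With CsA at 12 h, the CsA arrays of 2 of the 4 measured members, GDF15 and INHBE, lay wholly above control, as did those of 6.53% of all genes tested. Only 1 gene of all passed the limma threshold at 12 h, 0.00897% of those tested. GDF15 ranked 14 and INHBE 10 from the highest of 11154 changes at 12 h. At 48 h GDF15, STC2 and ERFE lay wholly above control and INHBE wholly below, as did 13.9% of all genes above and 15.8% below. ERFE ranked 6, GDF15 335 and STC2 1224 from the highest change at 48 h. In the model of all 12 arrays, 6.2% of genes were higher and 9.89% lower at 48 h by limma's adjusted p. In the arrays of 48 h alone these shares were 0.278% higher and 0.825% lower. The members were chosen on these comparisons, so nothing is read from their share or their ranks. Without CsA 48 h replicate 3 the 48 h changes were 0.83 for GDF15, -0.41 for INHBE, 0.24 for STC2 and 1.58 for ERFE. Without replicate 1 of both groups at 48 h they were 0.56 for GDF15, -0.53 for INHBE, 0.46 for STC2 and 2.30 for ERFE.

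For INHBE, GDF15 and STC2 the differences between times were larger than those between CsA and control. Between control cells at 48 h and at 12 h, INHBE was higher by 5.06 (SE 0.30) on the log2 scale, or 33.4-fold, GDF15 by 3.37 (SE 0.19), or 10.3-fold, and STC2 by 2.13 (SE 0.14), or 4.37-fold. The arrays of these 3 were separated by gaps of 4.29, 2.95 and 1.76, and 31.8% of all genes had control arrays at 48 h wholly above those at 12 h. INHBE ranked 2, GDF15 20 and STC2 104 from the highest of all changes with time in control cells. Members were chosen for rising with time or with CsA in these data, so nothing is read from these ranks. ERFE differed by -0.23 (SE 0.48) in control cells, with overlapping arrays, and by 0.42 without control 48 h replicate 2. Without the arrays of low poly-A controls the changes were 5.10 for INHBE, 3.36 for GDF15, 2.11 for STC2 and -0.58 for ERFE.

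In CsA cells all 4 members were higher at 48 h than at 12 h, with gaps of 3.28 for INHBE, 2.64 for GDF15, 2.15 for STC2 and 0.55 for ERFE, as were 33.5% of all genes. INHBE was higher by 3.69 (SE 0.30), or 12.9-fold, GDF15 by 3.17 (SE 0.19), or 9.02-fold, STC2 by 2.45 (SE 0.14), or 5.46-fold, and ERFE by 1.48 (SE 0.48), or 2.78-fold. Without CsA 48 h replicate 3 these changes were 3.76 for INHBE, 3.31 for GDF15, 2.31 for STC2 and 1.15 for ERFE. Without the arrays of low poly-A controls they were 3.67 for INHBE, 3.05 for GDF15, 2.51 for STC2 and 1.51 for ERFE. CsA and control comparisons with time share no arrays. The CsA comparison at 48 h shares the CsA arrays of 48 h with the CsA comparison with time. It shares the control arrays of 48 h with the control comparison with time.

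By Pearson correlation over the 12 arrays, the genes most like GDF15 were RBM18 (0.996), VLDLR (0.991) and ZNF277 (0.989). Those most like INHBE were EXOSC6 (0.995), SLC46A1 (0.992) and TMEM128 (0.990), and those most like STC2 were DYM (0.997), GCC1 (0.997) and PCK2 (0.996). The arrays fall into 2 times, which all these correlations share: 394, 300 and 574 genes had r over 0.95 with GDF15, INHBE and STC2. Few were as close to ERFE, for which 5 genes had r over 0.95 and the nearest were MICALL1 (0.974), DSG2 (0.961) and SPOCD1 (0.960). EXOSC6, like INHBE, was higher with CsA at 12 h by 0.54 and lower at 48 h by -0.26. SPOCD1, like ERFE, had a CsA change of 0.17 at 12 h and 1.22 at 48 h, and a change of -0.17 with time in control cells. EXOSC6 and SPOCD1 were picked for their correlation over these same arrays, so their likeness is no separate result.

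Of 23 regulators known to act upstream of these hormones, 22 were measured. Between control cells at 48 h and 12 h, 14 were higher and 3 lower by limma's adjusted p, with a median of 1.33, while 24.6% of all genes were higher and 20.9% lower and the median of all genes was 0.03. DDIT3 rose by 4.84 (SE 0.26, limma adjusted p = 9.66e-07), ATF4 by 1.33 (SE 0.10, limma adjusted p = 5.29e-06) and CEBPG, a C/EBP partner of ATF4, by 2.09 (SE 0.10, limma adjusted p = 7.31e-07). With CsA at 48 h, 2 of the 22 were higher and 1 lower in the model of all arrays, and 1 passed in the arrays of 48 h alone, in a comparison where 6.2% of all genes were higher and 9.89% lower. CEBPG changed by 0.44 (SE 0.10, limma adjusted p = 0.0198, and 0.131 in those arrays alone) and EPAS1, the hypoxia factor HIF-2 alpha, by 0.68 (SE 0.15, limma adjusted p = 0.0142, and 0.0707 alone). ATF5 fell by 0.51 (SE 0.13, limma adjusted p = 0.0229, and 0.0795 alone). ATF4 and DDIT3 gave CsA values of 0.11 and 0.28 at 48 h and did not pass (limma adjusted p = 0.461 and 0.491). At 12 h their values were 0.38 and 0.70 and no regulator passed, with a median of 0.11. The gene that passed in the arrays of 48 h alone was ATF3, with 0.71 (SE 0.36, limma adjusted p = 0.0454 there and 0.200 in all arrays).

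**Figure D4:**
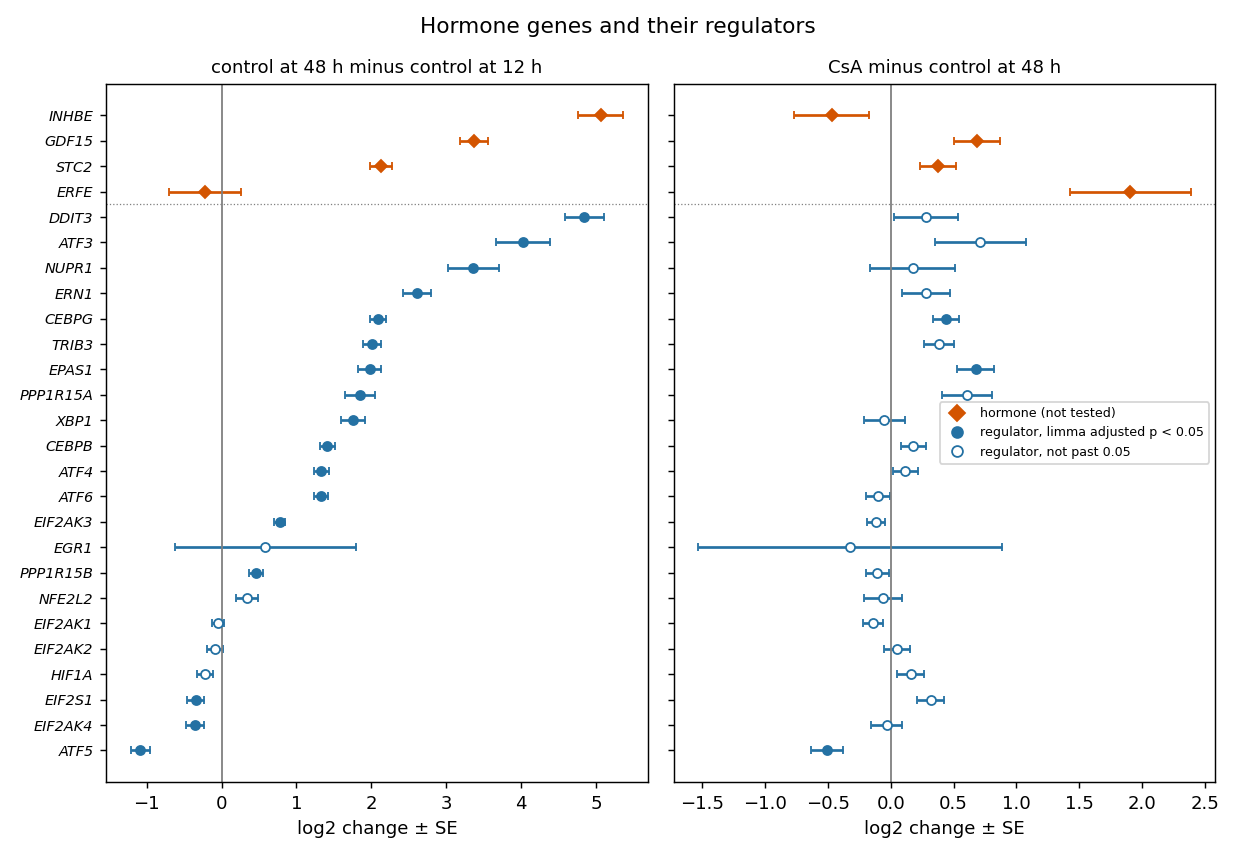
Log2 change ± SE (x axis) of the measured regulators and the 4 hormones (y axis) for control cells at 48 h minus 12 h (left) and for CsA minus control at 48 h (right). Diamonds are the hormones, which were not tested, and filled circles are regulators past limma's adjusted p of 0.05; at left 14 regulators are filled to the right of 0 and 3 to the left.

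Receptors and partners of the hormones were counted too. Of 16 genes other than the hormones that were named for passing with CsA at 48 h, here and among the regulators, stress factors and iron genes, 15 passed without CsA 48 h replicate 3 and 5 without the arrays of low poly-A controls. Those 5 were ID3, BMPR2, CEBPG, C1QTNF6 and IL11. Of 15 receptors of the transforming growth factor beta and GDF15 families, 10 were measured, and with CsA at 48 h 1 was lower and none higher, a share close to the 9.89% of all genes that were lower. That 1 was BMPR2, a bone morphogenetic protein receptor, at -0.73 (SE 0.11, limma adjusted p = 0.00339, and 0.0596 in the arrays of 48 h alone). RET lay at or under 4 on every array, and GFRAL was not analysed here. Of 15 SMADs and their targets, 12 were measured and 3 were lower with CsA at 48 h, namely ID3, SMAD6 and SMAD1, with none higher, where 9.89% of all genes were lower and 6.2% higher. In the arrays of 48 h alone only ID3 of these passed, with limma adjusted p = 0.112 for SMAD6 and 0.115 for SMAD1. ID3, a target of bone morphogenetic protein signalling, fell by 1.44 (SE 0.13, limma adjusted p = 7.3e-04, and 0.0450 alone). Its values were 7.72, 7.71 and 7.45 in CsA cells, against 9.09, 9.32 and 8.78 in control cells at 48 h. The difference of its CsA effects was -1.07 (SE 0.19, limma adjusted p = 0.037), in a contrast where 0.897% of all genes were lower. That call was kept in 3 of 12 fits with 1 array left out, and it was lost without the arrays of low poly-A controls (limma adjusted p = 0.131).

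Among 33 relatives of GDF15 and INHBE and their antagonists, 9 were measured. INHBA, the beta A chain of activin A, was higher with CsA at 48 h by 1.26 (SE 0.32, limma adjusted p = 0.0246, and 0.0795 alone), the direction opposite to that of INHBE. It did not pass without CsA 48 h replicate 3 (1.11, limma adjusted p = 0.0574) or without the arrays of low poly-A controls (1.40, limma adjusted p = 0.0763). Its values were 11.30, 10.63 and 11.39 in CsA cells, against 10.32, 9.53 and 9.71 in control cells. INHBA fell by 1.40 in control cells with time (SE 0.32, limma adjusted p = 0.00456), where INHBE was higher by 5.06. Both INHBA changes rest on the same control arrays of 48 h. GDF11 was lower with CsA at 48 h, by -0.48 (SE 0.12, limma adjusted p = 0.0276, and 0.138 alone). INHBB and the antagonist FST lay under 4 on every array. Other antagonists were measured: with time in control cells GREM1 rose by 1.10 (limma adjusted p = 6.12e-05) and FSTL3 by 0.71 (limma adjusted p = 0.00644). With CsA at 48 h neither of them passed (limma adjusted p = 0.330 and 0.334).

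Of 19 partners of the stanniocalcins, 11 were measured. SLC20A1, a phosphate transporter, was higher with CsA at 48 h by 0.92 (SE 0.18, limma adjusted p = 0.0101, and 0.0864 alone), and IGFBP3, a carrier of insulin-like growth factors, was lower by -2.46 (SE 0.56, limma adjusted p = 0.0167, and 0.123 alone). The IGFBP3 values at 48 h were scattered, at 5.05, 4.31 and 6.32 in CsA cells, against 7.32, 8.98 and 6.75 in control cells. PAPPA, the protease that STC2 inhibits, had a CsA value of 0.54 (SE 0.20) at 48 h and did not pass (limma adjusted p = 0.0848). Its substrate IGFBP4 fell by 2.02 with time in control cells (SE 0.35, limma adjusted p = 8.75e-04), while STC2 was higher there. The IGFBP4 values in control cells at 48 h were 4.20, 5.46 and 4.28, near the filter at 4, so the size of this fall is uncertain. Of 10 proprotein convertases, which cut hormone precursors to their active form, 4 were measured and none passed with CsA at 48 h. FURIN, the best known of them, fell by 1.05 with time in control cells (SE 0.20, limma adjusted p = 0.0015).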

How the data were processed

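The deposited table holds log2 values of 54675 Affymetrix probe sets on 12 arrays. The authors used GCRMA for these deposited values, as the submitters' processing notes say, with version and settings not given in the sources used here. GCRMA pulls dim probe sets to a floor, so folds against values near 4 are uncertain. The platform annotation gave 1 gene for 41097 probe sets, several for 1801 and none for 11777. Probe sets with 1 gene and log2 above 4 on at least 3 arrays were kept, and the one with the highest mean stood for its gene, which left 11154 genes. No further normalization was applied. Limma 3.58.1 (R 4.3.3) fitted 4 groups together, with 8 residual degrees of freedom and a threshold of 0.05 on p-values adjusted by Benjamini-Hochberg, two-sided. On simulated data with the spread of each time, this fit of all arrays made more false calls at 48 h than its threshold implies. Its calls at 48 h are therefore less sure than their adjusted p-values say. Since the 48 h arrays varied more than those of 12 h, fits of the 48 h arrays alone are given beside the fit of all arrays. SE is from the model of all arrays unless stated otherwise, so 1 spread per gene serves both times. The number of arrays limits precision, and intensities and depth are not given for these values.

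The members, gene lists and tests were chosen with earlier results of these data known. Every member was a named gene. From each list came up to 4 genes past the threshold in each CsA comparison and up to 2 in each other comparison. Where none passed, the 2 largest changes at 48 h were named. Further named genes were 8 always included and the 3 genes most correlated with each member. ATF3 was added after its values were seen. PAX8 and CDH6 are cell type markers outside this rule, and both passed in the arrays of 48 h alone. The rest of the genes so named are counted in their lists. Same-numbered arrays, by the labels' replicate numbers, had correlated deviations from their group means. For CsA with control at 12 h, r was 0.467 to 0.577, and for the controls across time 0.278 to 0.325, each over the 0.1 required. At 48 h it was -0.051 to 0.300 and for CsA across time -0.0058 to 0.222, so not every pair reached it. Other settings were other filters, probe set choices, array weights, centring, the replicate block and leaving out arrays. Promoters came from a RefSeq table.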

Additional observations from a re-analysis of the deposited data

Results flagged for a closer look

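INHBE stood out because CsA arrays lay above control at 12 h and below control at 48 h, for every array. The CsA effect at 48 h minus that at 12 h was -1.37 on the log2 scale, and this difference was not tested, since INHBE was chosen on these data. ID3, a bone morphogenetic protein target, stood out because the difference of its CsA effects passed limma's threshold, at -1.07 (adjusted p = 0.037). Without CsA 12 h replicate 3, control 12 h replicate 1 or control 12 h replicate 3, no gene passed in that difference, and ID3 kept its call in 3 of 12 fits with 1 array left out.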

How the results depend on the processing

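Over 21 other settings, 409 of 412 recomputed member changes kept the sign of the value reported, and 406 moved by under 1 SD. Many of these values could not move. Other filters, the replicate block and the arrays of both groups alone left the estimates as they were, as did leaving out an array outside the comparison. The counts are therefore no measure of how stable the changes are. The exceptions in sign were ERFE with time in control cells, at 0.42 without control 48 h replicate 2, and STC2 with CsA at 12 h, at -0.02 without CsA 12 h replicate 3 and -0.03 without control 12 h replicate 1. At 12 h, 1 gene passed limma's threshold, and 318 had an unadjusted p under 0.05. It was 2 with no filter, and 0 with the mean of probe sets, the replicate block, the arrays of both groups alone, centred arrays or without the arrays of low poly-A controls, and 0 to 1 with single arrays left out, 1 only without CsA 12 h replicate 2. At 48 h, 1795 genes passed: 123 in the arrays of both groups alone, 2981 with array weights, 480 without the arrays of low poly-A controls, and 731 to 2175 with single arrays left out. It was 731 without control 48 h replicate 2, 1011 without CsA 48 h replicate 1 and 1099 without control 48 h replicate 1. The difference of effects gave 125 genes: 49 with no filter, 1199 with array weights, 2 without the arrays of low poly-A controls, and 0 to 442 with single arrays left out. It was 0 to 28 without any 12 h array, either replicate 1 of 48 h or control 48 h replicate 2, and 325 to 442 without CsA 48 h replicate 2 or 3 or control 48 h replicate 3. With the replicate block, which the pairing of arrays allows at 12 h and between controls, 0 genes passed at 12 h, 2200 at 48 h and 396 in the difference. Arrays of both groups alone with the replicate block, added after seeing the data, gave 2 at 12 h and 24 at 48 h. Counts with time ranged from 4185 to 5919 in control cells and 5142 to 6201 in CsA cells with single arrays left out. Among named genes only BMPR2 with time in control cells turned its sign, at -0.10 with the mean of probe sets against 0.37. Of 16 named calls with CsA at 48 h, 5 held with every single array left out. The cause of these shifts was not tested.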

Other observations

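Other secreted factors known to respond to stress were counted as a list of 20, of which 14 were measured. With CsA at 48 h, 3 were higher in the model of all arrays, where 6.2% of all genes were, and 0 in the arrays of 48 h alone, where 0.278% were: IL11, an interleukin, by 0.77 (limma adjusted p = 0.00689, and 0.0872 alone), VEGFA, the vascular growth factor, by 0.82 (limma adjusted p = 0.0208, and 0.0729 alone) and LIF by 0.60 (limma adjusted p = 0.0239, and 0.0699 alone). At 12 h 0 passed, with 12 of 14 above 0 and a median of 0.37. Over all genes 47.1% were above 0, with a median of -0.01. VEGFA rose in control cells with time by 2.52 (limma adjusted p = 6.79e-06), and MANF, a protein of the endoplasmic reticulum, by 2.37 (limma adjusted p = 7.93e-06).

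Of 17 iron handling genes, 10 were measured, and with CsA at 48 h 1 was lower, a share close to the 9.89% of all genes: ACO1, at -0.37 (limma adjusted p = 0.0488, and 0.199 alone). TFRC, the transferrin receptor, had a CsA value of 0.13 at 48 h (SE 0.25, limma adjusted p = 0.757). SLC39A14, a metal importer, rose in control cells with time by 1.81 (limma adjusted p = 1.68e-05). Of 14 relatives of ERFE in the C1q and TNF related family, 2 were measured, and C1QTNF6 fell with CsA at 48 h by 0.91 (limma adjusted p = 0.00962, and 0.0497 alone), opposite in sign to ERFE.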
